A study of Rattus norvegicus with 19 samples.

Results

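The genes described are subunits of the AMP-activated protein kinase (AMPK) and PGC-1 transcriptional regulators of the rat left ventricle: Prkaa1, Prkaa2, Prkab1, Prkab2, Prkag1, Prkag2, Perm1, Ppargc1a, Ppargc1b and Esrra. They were chosen by symbol from the array's annotation, with the group differences measured on these same arrays in view. The annotation named them on 18 probe sets, and all 10 were among the 14218 genes measured. RNA came from 19 male Dahl salt-sensitive (Harlan SS/Hsd) rats, a strain in which a salty diet raises blood pressure and thickens the heart, and 1 Affymetrix expression array was run per rat. The diet held 6% NaCl from the age of 6 weeks in every group, and no array came from a rat on a normal diet. The combination group (n = 4) received enalapril, an inhibitor of angiotensin-converting enzyme, at 90 ug a day by osmotic pump, together with paricalcitol, a synthetic vitamin D analogue, at 200 ng per injection and 3 injections a week. The enalapril group (n = 3) received the pump with vehicle injections, the paricalcitol group (n = 4) the paricalcitol injections, and the vehicle group (n = 4) the vehicle injections. These 4 groups were treated for 4 weeks after 5 weeks of salt and were taken at 15 weeks of age, while the baseline group (n = 4) was taken at 11 weeks, after the 5 weeks of salt. Vehicle against baseline therefore carries time on salt, age and injections together, and these cannot be told apart. As described, only the enalapril and combination groups had a pump. Comparing either with the vehicle or paricalcitol group thus carries pump and enalapril together.

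AMPK is a kinase of 3 subunits that senses a fall in cellular energy: an alpha subunit carries the catalytic site, a beta subunit is the scaffold and binds glycogen, and a gamma subunit binds adenine nucleotides. PGC-1 alpha and beta (Ppargc1a, Ppargc1b) are coactivators that bind the nuclear receptor ERR alpha (Esrra) and other factors and raise the transcription of genes of fatty acid oxidation and oxidative phosphorylation, on which the heart depends. Perm1 is a muscle protein induced by PGC-1 and ERR that supports the oxidative programme, and AMPK is known to act on PGC-1 alpha. These arrays measured RNA, not kinase activity or phosphorylation, and in whole ventricle a smaller share of a cell type and less RNA per cell cannot be told apart.

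Values are log2 of the quantile-normalized intensity plus 16, so that the floor is 4 and the median gene averaged 7.07. Intensities depend on the probes and are not compared between genes. Where a gene had several probe sets, the brightest on average was used. A difference is a log2 value, positive where the first group is higher, and its standard error (SE) is from a limma fit over all 19 arrays. Its p-values were adjusted by Benjamini-Hochberg over all 14218 genes, and a gene was called at an adjusted p under 0.05. Because of how the genes were chosen, their values describe these arrays and are no independent test. All 16 measured cardiomyocyte markers were above the median gene, at means of 11.98 to 14.37. Array medians before normalization were 43.6 to 72.6 intensity units, and the number of arrays limits the precision. The red cell marker score, the mean deviation of 10 measured genes such as Hbb and Alas2, ran from -0.87 to 0.59 in the combination, -0.54 to 0.49 with enalapril, -0.88 to 0.70 with paricalcitol, -0.29 to 0.41 with vehicle and -0.03 to 0.70 at baseline. The summed intensity of these markers was 15596 to 28430 in the combination, 18579 to 27386 with enalapril, 16034 to 27131 with paricalcitol, 21452 to 26771 with vehicle and 23994 to 27440 at baseline. Of these markers Rhag was at the floor on 15 arrays and Epb42 on 3, and the others on none.

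The promoters of the 3 genes that differed most in the combination are shown from RefSeq (build GRCr8, 300 bases from 250 before the start of the gene to 50 after it, gene strand), with the motif matches in capitals. Promoters of all 10 genes were found. The capitals in Perm1 (chr5:172081999-172082298, plus strand) are the reverse complement of AAGGTCA, the core site bound by ERR alpha, and 4.61% of 33469 promoters held it on either strand. Those in Prkag1 (chr7:131859435-131859734, minus strand) are CCGGAAG, a site of ETS factors such as GABP, held by 8.75%, and those in Ppargc1a (chr14:63634058-63634357, plus strand) are the cAMP response element TGACGTCA, held by 1.83%.
Perm1: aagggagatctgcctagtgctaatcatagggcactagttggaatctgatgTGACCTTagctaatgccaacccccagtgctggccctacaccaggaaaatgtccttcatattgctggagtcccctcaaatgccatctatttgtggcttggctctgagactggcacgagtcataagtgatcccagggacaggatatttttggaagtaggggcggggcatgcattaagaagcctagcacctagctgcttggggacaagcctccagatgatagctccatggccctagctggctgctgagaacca
Prkag1: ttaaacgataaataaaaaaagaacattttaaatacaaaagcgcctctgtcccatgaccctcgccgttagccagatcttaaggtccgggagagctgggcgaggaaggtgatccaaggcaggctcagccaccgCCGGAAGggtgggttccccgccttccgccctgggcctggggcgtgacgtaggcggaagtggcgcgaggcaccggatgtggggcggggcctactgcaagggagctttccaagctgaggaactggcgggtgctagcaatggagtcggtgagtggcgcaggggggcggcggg
Ppargc1a: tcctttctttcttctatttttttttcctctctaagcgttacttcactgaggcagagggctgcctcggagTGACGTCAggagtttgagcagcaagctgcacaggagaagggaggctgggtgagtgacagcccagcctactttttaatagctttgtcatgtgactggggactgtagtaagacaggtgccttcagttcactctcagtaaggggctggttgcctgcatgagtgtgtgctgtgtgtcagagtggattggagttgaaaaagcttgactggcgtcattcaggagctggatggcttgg
The first capital lay 200 bases before the start in Perm1, 119 bases before it in Prkag1 and 181 bases before it in Ppargc1a. Prkab1 also held CCGGAAG, 83 bases before its start. No promoter of the 10 genes held the longer ERR element TNAAGGTCA (1.2% of promoters), the NRF1 site (4.25%) or the direct repeat of the vitamin D receptor (0.0777%). These are matches of letters in a short window and say nothing of binding.

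Perm1 was the gene of the 10 with the largest difference in rats given both drugs. It read 10.48, 10.54, 10.38 and 10.74 in the combination, 10.08, 10.07 and 9.97 with enalapril, and 9.91, 10.42, 9.97 and 9.77 with paricalcitol. It read 9.90, 10.10, 9.92 and 10.07 with vehicle, and 10.03, 9.72, 9.90 and 9.54 at baseline. All 4 combination rats lay above every rat of the enalapril and vehicle groups, and 1 paricalcitol rat (10.42) lay just above the lowest combination rat (10.38). Of all genes, 2.77% were higher without overlap in combination against enalapril and 2.31% against vehicle.

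The combination exceeded vehicle by 0.54 (SE 0.13, 1.45-fold, limma adjusted p = 0.261), enalapril by 0.50 (SE 0.14, adjusted p = 0.831) and paricalcitol by 0.52 (SE 0.13, adjusted p = 0.185). Perm1 did not pass in any of these. In combination against vehicle 0.267% of genes had a smaller p, and the Perm1 difference stayed between 0.47 and 0.59 over the 33 alternatives and omissions. Enalapril alone against vehicle gave 0.04 (SE 0.14) and paricalcitol alone 0.02 (SE 0.13). The interaction, the combination's excess over the sum of both single-drug differences, was 0.48 (SE 0.19, adjusted p = 0.620).

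Prkag1, which encodes the gamma 1 subunit, had the smallest residual SD (0.07) and was the only one of the 10 called in the moderated F test of any difference among the 5 groups (adjusted p = 0.0408), a test that called 0.127% of all genes. It read 9.67, 9.76, 9.72 and 9.72 in the combination, 9.65, 9.41 and 9.57 with enalapril, and 9.54, 9.51, 9.50 and 9.48 with paricalcitol. It read 9.64, 9.54, 9.50 and 9.50 with vehicle, and 9.40, 9.30, 9.30 and 9.39 at baseline. Every combination rat lay above every other rat, and every baseline rat lay below every other rat. Of all genes, 2.31% were higher without overlap in combination against vehicle, 2.77% against enalapril and 2.04% against paricalcitol. In vehicle against baseline 3.75% were. The share of genes above or below all other groups at once was not computed.

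The differences were small. The combination exceeded vehicle by 0.17 (SE 0.05, 1.13-fold, limma adjusted p = 0.415), enalapril by 0.18 (SE 0.05, adjusted p = 0.831) and paricalcitol by 0.21 (SE 0.05, adjusted p = 0.174), and vehicle exceeded baseline by 0.20 (SE 0.05, adjusted p = 0.138). The F test call was lost with the replicate number as a block (adjusted p = 0.0512), with dimmer genes left out (0.113), with probe sets averaged (0.0630), with the fibroblast marker score as a covariate (0.125), and in 12 of 19 omissions of 1 array (0.0575 to 0.110). Prkag1 and Perm1 each had 1 probe set. Averaging and leaving out dimmer genes therefore changed the adjusted p of Prkag1 only through the other genes. In the deposited values without equalisation the adjusted p was 0.667 and vehicle against baseline was -0.02, where the median gene was at -0.20. The fibroblast marker score was -0.28 to 0.07 with vehicle and 0.12 to 0.51 at baseline, and its part in the Prkag1 difference was not tested beyond that fit.

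**Figure D1:**
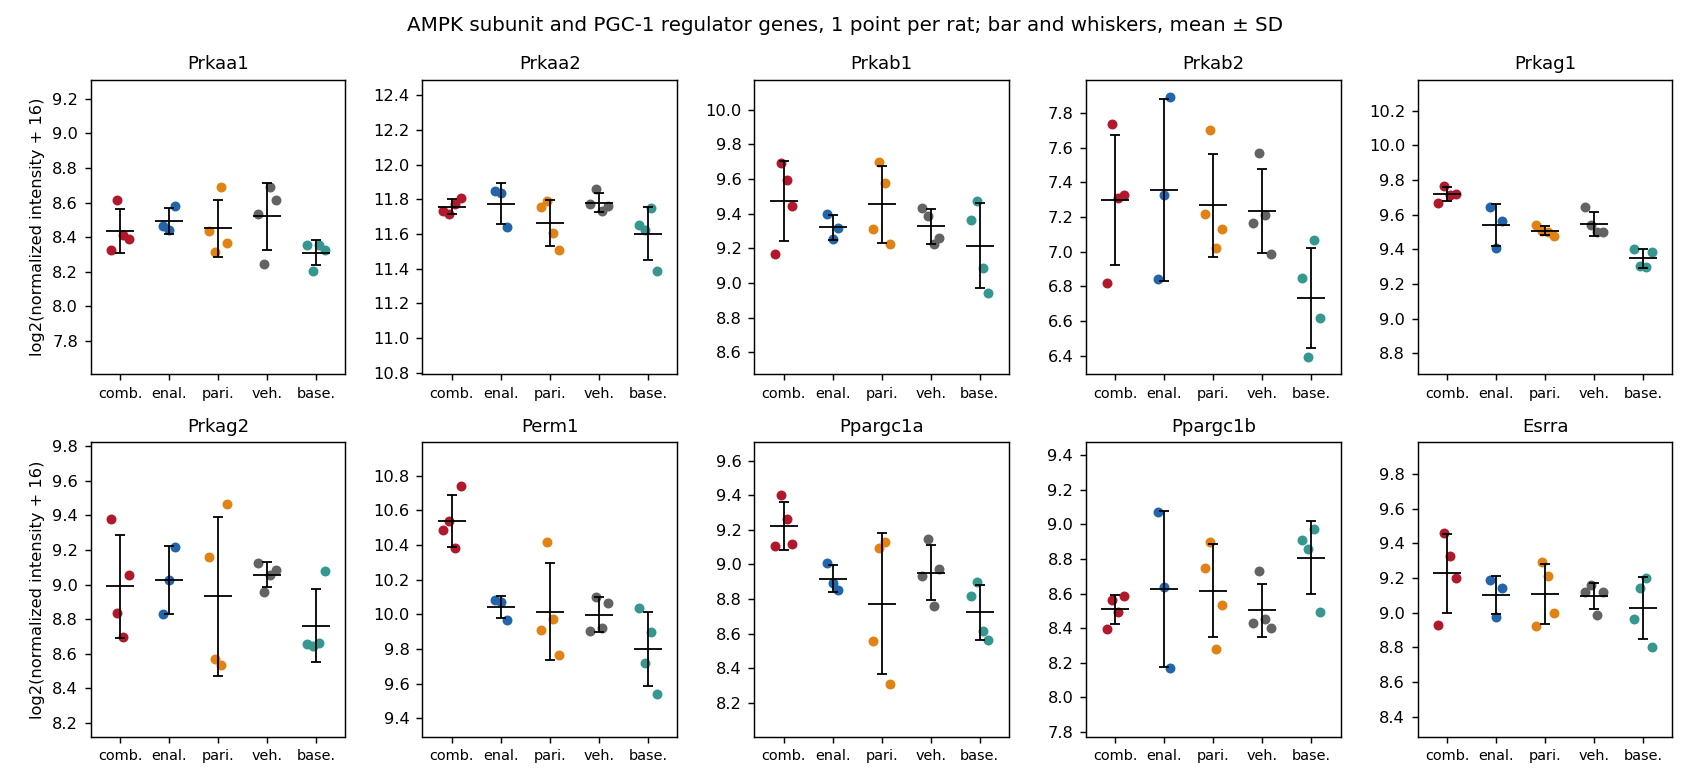
Level of each of the 10 genes in every rat, as log2 of normalized intensity plus 16, with the combination (comb.), enalapril (enal.), paricalcitol (pari.), vehicle (veh.) and baseline (base.) groups from left to right; points are rats and bars are mean ± SD. Group means of Prkab1, Prkag1, Perm1, Ppargc1a and Esrra were highest in the combination. Those of all genes but Ppargc1b were lowest at baseline, and the panels span equal ranges of log2 units.

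The catalytic subunits moved little. Prkaa2, the alpha 2 subunit that predominates in heart muscle, read 11.74, 11.72, 11.77 and 11.81 in the combination, 11.85, 11.84 and 11.64 with enalapril, and 11.76, 11.79, 11.61 and 11.51 with paricalcitol. It read 11.77, 11.86, 11.74 and 11.76 with vehicle, and 11.65, 11.62, 11.75 and 11.39 at baseline. Vehicle exceeded baseline by 0.18 (SE 0.08, limma adjusted p = 0.483), with 1 baseline rat inside the vehicle range.

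Prkaa1, the alpha 1 subunit, averaged 8.44 ± 0.13 in the combination (SD, n = 4), 8.50 ± 0.08 with enalapril (n = 3), 8.45 ± 0.16 with paricalcitol, 8.52 ± 0.20 with vehicle and 8.31 ± 0.07 at baseline. Vehicle exceeded baseline by 0.21 (SE 0.10, adjusted p = 0.531). Its other 2 probe sets were faint, with group means of 4.66 to 5.78, and followed the one used with r = -0.37 and -0.06 over the 19 arrays.

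Of the beta subunits, Prkab1 averaged 9.47 ± 0.23 in the combination, 9.32 ± 0.07 with enalapril, 9.45 ± 0.22 with paricalcitol, 9.33 ± 0.10 with vehicle and 9.22 ± 0.24 at baseline. With the groups ranked by mean, no neighbours differed by more than the larger of their SDs. Prkab2, the beta 2 subunit of striated muscle, read 7.17, 7.57, 7.21 and 6.99 with vehicle, against 6.85, 6.39, 7.07 and 6.62 at baseline. That difference of 0.50 (SE 0.24, limma adjusted p = 0.547) was the largest of the 10 genes in vehicle against baseline, and the ranges overlapped by 1 rat on each side. Its second probe set gave 0.14 (SE 0.20).

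Prkag2, the gamma 2 subunit, in which inherited human mutations cause a glycogen-storage cardiomyopathy, spread most within the group that received paricalcitol alone. It read 9.38, 8.84, 8.70 and 9.06 in the combination, 8.83, 9.03 and 9.22 with enalapril, and 9.16, 8.57, 8.53 and 9.47 with paricalcitol. It read 9.13, 8.96, 9.06 and 9.09 with vehicle, and 8.66, 8.65, 8.67 and 9.08 at baseline. The SD was 0.30 in the combination, 0.20 with enalapril, 0.46 with paricalcitol, 0.07 with vehicle and 0.21 at baseline, and the ranges overlapped. The red cell marker score of the same paricalcitol rats was 0.34, -0.59, -0.88 and 0.70, high in the rats in which Prkag2 was high, and its part in the spread was not tested. A second probe set followed the same rats (r = 0.954 over 19 arrays), with 7.82, 6.89, 6.78 and 8.58 under paricalcitol, while the other 2 were faint (group means of 4.26 to 5.49) and did not follow it (r = -0.05 and -0.32).

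Ppargc1a, the inducible coactivator PGC-1 alpha, read 9.11, 9.40, 9.26 and 9.12 in the combination, 9.01, 8.89 and 8.86 with enalapril, and 8.56, 9.09, 9.13 and 8.31 with paricalcitol. It read 8.94, 9.15, 8.76 and 8.97 with vehicle, and 8.81, 8.90, 8.62 and 8.56 at baseline. All combination rats lay above all enalapril rats, and they overlapped the paricalcitol and vehicle rats. Against enalapril 2.77% of all genes were higher in the combination without overlap.

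The combination differed from paricalcitol by 0.45 (SE 0.16, limma adjusted p = 0.378), from enalapril by 0.31 (SE 0.17, adjusted p = 0.910) and from vehicle by 0.27 (SE 0.16, adjusted p = 0.738), so Ppargc1a did not pass in any. Its other 2 probe sets differed from each other in these comparisons. One, which followed the probe set used with r = 0.78, gave 0.29 (SE 0.16) against paricalcitol, 0.28 (SE 0.17) against enalapril and 0.28 (SE 0.16) against vehicle. The other, at r = 0.68, gave 0.08 (SE 0.24) against paricalcitol, -0.02 (SE 0.26) against enalapril and -0.18 (SE 0.24) against vehicle. Beside the differences of Ppargc1a, Perm1 and Prkag1 between the combination and paricalcitol, 11 of 12 smooth muscle and pericyte markers lay below 0, with a median of -0.38. Their score was -0.24 to -0.08 in the combination, against 0.11 to 0.25 with paricalcitol, without overlap, and all 10 endothelial markers also lay below 0, with a median of -0.12. Of 16 cardiomyocyte markers 8 lay above 0 (median 0.004), and 11 of 14 macrophage markers lay below 0 (-0.07). The part of any of these cells in the 3 differences was not tested.

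**Figure D2:**
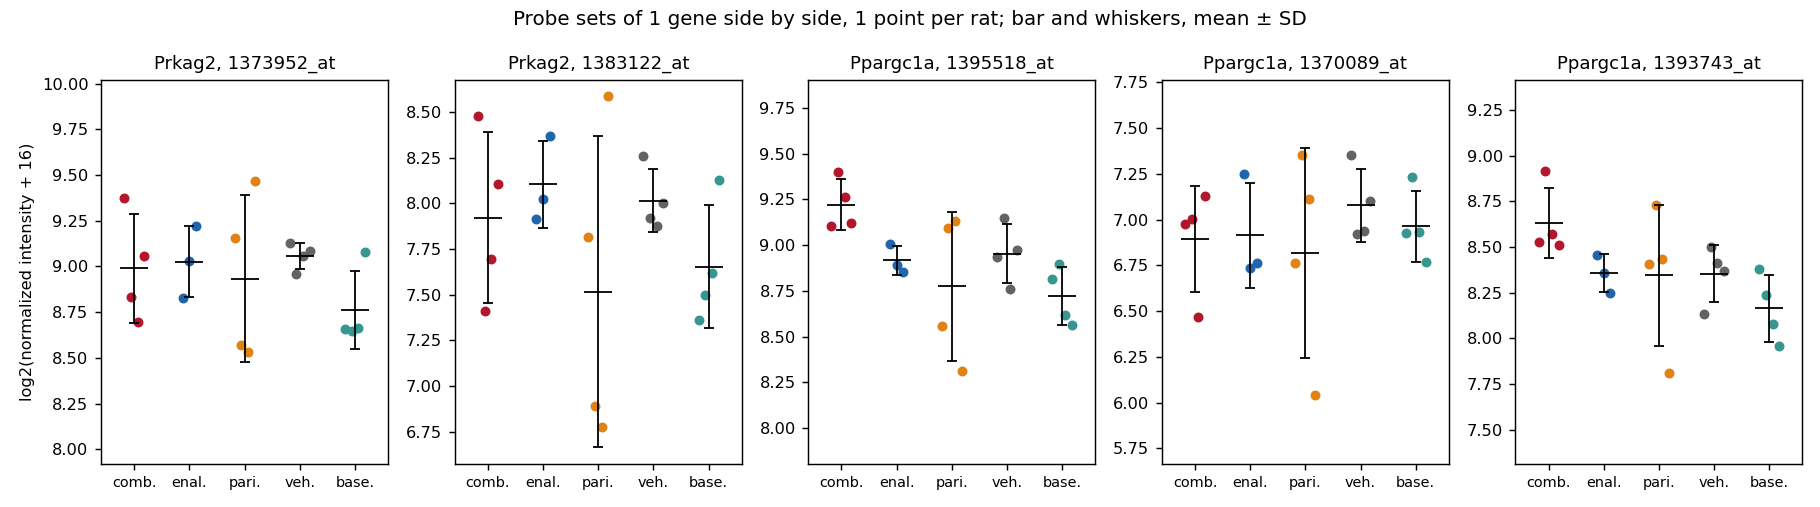
Probe sets of Prkag2 and Ppargc1a side by side, as log2 of normalized intensity plus 16 in every rat of the combination (comb.), enalapril (enal.), paricalcitol (pari.), vehicle (veh.) and baseline (base.) groups; bars are mean ± SD. The 2 Prkag2 probe sets shown, its brightest, split the paricalcitol rats in the same way. Its other 2, not shown, were faint and did not follow. The combination was highest in 2 of the 3 Ppargc1a probe sets.

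Ppargc1b, the related coactivator PGC-1 beta, was the only one of the 10 lower with vehicle than at baseline. It read 8.43, 8.73, 8.46 and 8.40 with vehicle, against 8.91, 8.86, 8.97 and 8.50 at baseline, a difference of -0.30 (SE 0.17, limma adjusted p = 0.635), and the ranges overlapped. Its group means were 8.51 ± 0.09 in the combination, 8.63 ± 0.45 with enalapril and 8.62 ± 0.27 with paricalcitol. Esrra, the receptor ERR alpha, was the flattest of the regulators, at 9.23 ± 0.23 in the combination, 9.10 ± 0.11 with enalapril, 9.11 ± 0.17 with paricalcitol, 9.10 ± 0.08 with vehicle and 9.03 ± 0.18 at baseline.

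Counted over the 10 genes, none was called in vehicle against baseline (0.0844% of all genes were), in paricalcitol against vehicle (0.0141%), in combination against vehicle (0.00703%), or in enalapril against vehicle, the combination against either drug or the interaction, in which limma called 0 genes. At an unadjusted p under 0.05 they numbered 3 in vehicle against baseline (9.2% of all genes), 0 in paricalcitol against vehicle (9.64%), 0 in enalapril against vehicle (5.64%) and 2 in combination against vehicle (7.68%). They numbered 2 in combination against enalapril (5.3%), 3 in combination against paricalcitol (9.04%) and 2 in the interaction (6.95%). The rats of the combination lay above those of the other group without overlap for 2 of the 10 genes against vehicle (2.31% of all genes), 3 against enalapril (2.77%) and 1 against paricalcitol (2.04%). In vehicle against baseline 9 of the 10 differences were above 0 (47.1% of all genes), with a median of 0.20, and 1 gene had no overlap (3.75%). In the same comparison 10 of 10 red cell markers (median -0.30), 11 of 12 fibroblast markers (-0.35), 13 of 14 macrophage markers (-0.25), 8 of 10 endothelial markers (-0.12) and 8 of 12 smooth muscle and pericyte markers (-0.19) lay below 0. Of 16 cardiomyocyte markers 9 lay above 0 (median 0.01), and of 10 T cell markers 5 did (0.008). Of 10 adipocyte markers 7 lay below 0 (-0.115). The part of any of these cells in the direction of the 9 genes was not tested. In the unequalised deposited arrays, where the median gene moved by -0.20, 5 of the 10 differences were above 0, with a median of -0.01. With arrays scaled to a common median, where the median gene moved by 0.035, 9 were above 0, with a median of 0.31. With 1 drug alone the differences from vehicle ran from -0.04 to 0.12 for enalapril and from -0.18 to 0.13 for paricalcitol. These directions depended on the scaling. Unequalised, all 10 enalapril differences were above 0 (median 0.20, where the median gene moved by 0.17). With a common median all 10 paricalcitol differences were below 0 (median -0.17, where the median gene moved by -0.05).

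**Figure D3:**
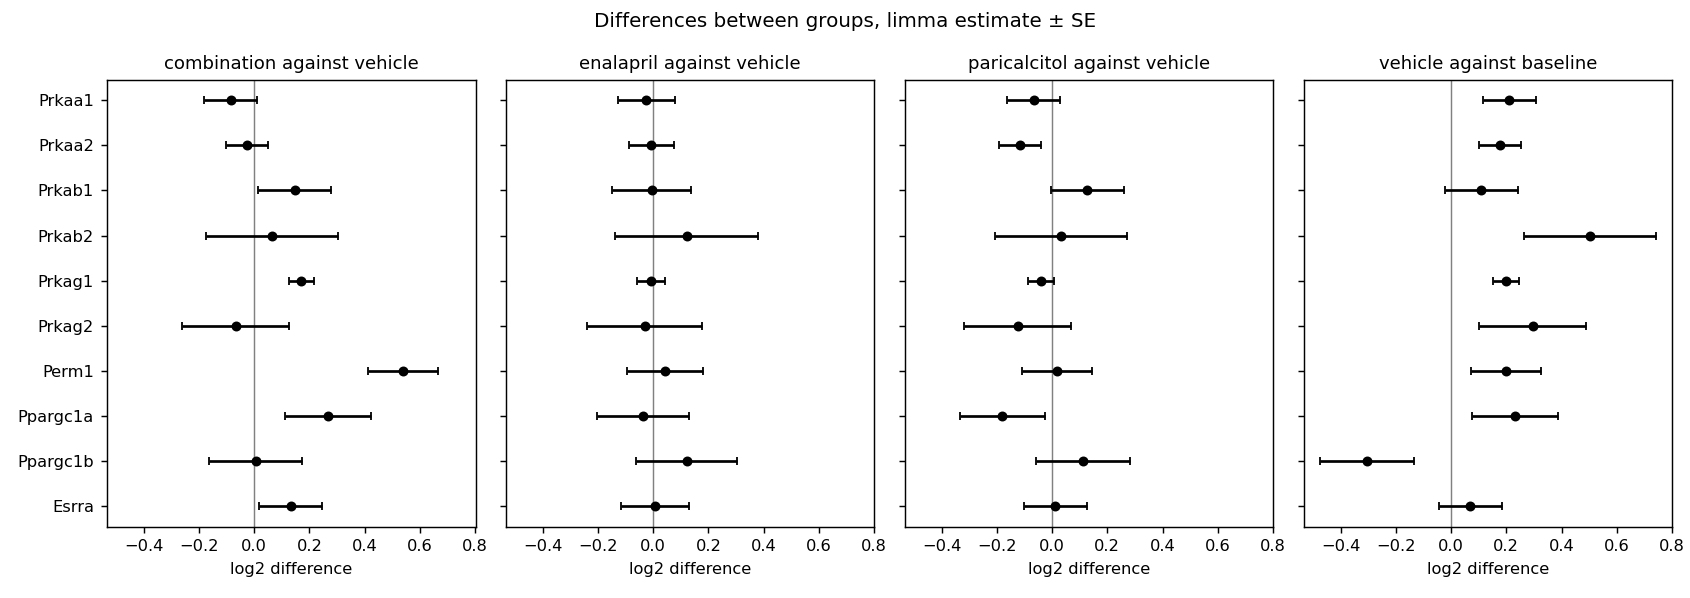
Log2 difference of each of the 10 genes, limma estimate ± SE, for the combination, enalapril and paricalcitol each against vehicle, and for vehicle against baseline. Perm1 at 0.54 stands apart in the combination, the enalapril estimates lie near 0, and all genes but Ppargc1b lie right of 0 in vehicle against baseline, where 5 of 10 do without equalisation of the arrays.

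Genes around the 10 were taken from 4 lists, and none passed in any comparison. The lists were 22 measured upstream kinases and partners of AMPK, 28 AMPK substrates and 46 partners and coregulators of PGC-1. The last list was 67 targets of PGC-1 and ERR alpha, mainly of fatty acid oxidation, the citric acid cycle and the respiratory chain. It also holds others, such as Vegfa, Sod2, Mb, Mfn2 and Ucp2. Among the 22 is Prkag3, the AMPK gamma 3 subunit, which is not one of the 10 genes. Prkag3 gave 0.42 in vehicle against baseline (SE 0.21, limma adjusted p = 0.565). In combination against vehicle 49 of the 67 targets lay above 0, with a median of 0.03, where 50.9% of all genes did and their median was 0.00. In vehicle against baseline 48 of 67 lay above 0, with a median of 0.04. Of the 28 substrates 17 lay above 0 in combination against vehicle (median 0.09), 15 in vehicle against baseline (0.10) and 11 in enalapril against vehicle (-0.07). Of the 22 upstream kinases and partners 10 lay above 0 in combination against vehicle (median -0.06) and 15 in vehicle against baseline (0.04). Of the 46 partners and coregulators of PGC-1 25 lay above 0 in combination against vehicle (median 0.03) and 21 in vehicle against baseline (-0.002).

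Some of the list genes with the smallest p in a comparison gave the following values, and all of them missed the threshold. Most of those printed for the combination were higher in it than in the group compared, but others of this kind were lower. Against vehicle these were Atp5f1a (-0.097, SE 0.04) and Med1 (-0.218, SE 0.081), beside Eef2k below. Atp5f1a was also lower against paricalcitol (-0.099, SE 0.04). Against enalapril Ppp2cb (-0.126, SE 0.046) and Nr4a1 were lower, while Sesn2, Pfkfb3, Slc2a4, Thrb, Slc25a20 and Acaa2 were higher. Kat2b, an acetyltransferase that acts on PGC-1 alpha, averaged 11.02 ± 0.05 with vehicle and 10.71 ± 0.07 at baseline (0.31, SE 0.07, limma adjusted p = 0.104). Mef2d, a muscle transcription factor coactivated by PGC-1, averaged 8.76 ± 0.12 in the combination and 8.48 ± 0.08 with vehicle (0.28, SE 0.08, adjusted p = 0.452). Each drug alone also lay above vehicle in Mef2d. Enalapril averaged 8.715 ± 0.07 (0.23, SE 0.09) and paricalcitol 8.69 ± 0.15 (0.21, SE 0.08). Sirt3, a mitochondrial deacetylase, averaged 8.55 ± 0.14 in the combination and 8.20 ± 0.22 with paricalcitol (0.35, SE 0.09, adjusted p = 0.233). Its mean was 8.42 ± 0.09 with vehicle and 8.42 ± 0.05 with enalapril.

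Idh3a, a subunit of the citric acid cycle's isocitrate dehydrogenase, averaged 11.13 ± 0.16 in the combination and 10.85 ± 0.04 with paricalcitol (0.28, SE 0.07, adjusted p = 0.200). Its mean was 10.968 ± 0.099 with vehicle and 11.005 ± 0.031 with enalapril. Cab39l, a scaffold of the upstream kinase LKB1, averaged 8.20 ± 0.08 in the combination and 7.91 ± 0.17 with paricalcitol (0.30, SE 0.08, adjusted p = 0.245). Its mean was 8.18 ± 0.06 with vehicle, 8.11 ± 0.16 with enalapril and 8.11 ± 0.06 at baseline. Paricalcitol against vehicle gave -0.27 for Cab39l (SE 0.08, limma adjusted p = 0.272). Crtc2, a cAMP-responsive coactivator that AMPK phosphorylates, averaged 7.56 ± 0.08 in the combination and 7.10 ± 0.21 with vehicle (0.46, SE 0.14, adjusted p = 0.465). Each drug alone also lay above vehicle in Crtc2, at 7.50 ± 0.26 with paricalcitol (0.40, SE 0.14) and 7.38 ± 0.17 with enalapril. Eef2k, the kinase of translation elongation factor 2, averaged 7.67 ± 0.17 in the combination, 7.47 ± 0.37 with enalapril, 7.63 ± 0.47 with paricalcitol and 8.26 ± 0.18 with vehicle (enalapril against vehicle -0.79, SE 0.22, adjusted p = 0.712, and combination against vehicle -0.60, SE 0.20, adjusted p = 0.515). Adipor2, a receptor of adiponectin, averaged 8.09 ± 0.15 in the combination and 7.74 ± 0.15 with paricalcitol (0.35, SE 0.11, adjusted p = 0.309). Its mean was 7.82 ± 0.10 with vehicle and 7.93 ± 0.22 with enalapril. Ncoa1, a nuclear receptor coactivator, averaged 9.02 ± 0.08 in the combination and 8.80 ± 0.18 with paricalcitol (0.23, SE 0.07, adjusted p = 0.331). Its mean was 8.85 ± 0.08 with vehicle and 8.95 ± 0.05 with enalapril. Ucp2, a mitochondrial carrier, averaged 10.99 ± 0.33 with paricalcitol and 11.58 ± 0.11 with vehicle (-0.58, SE 0.16, adjusted p = 0.209).

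The deviations of single rats from their group means were correlated over the 19 arrays with the score of the 67 targets, the mean deviation of these genes, and p-values came from 100000 permutations of the arrays within groups. They were adjusted over 40 relations, of the 10 genes with 4 scores. The permutations treat the arrays as independent, so these p-values may be too small. Combination and paricalcitol arrays of the same number deviated together over the genes above the median level (r = 0.315 to 0.555). Prkab1 rose and fell with the targets (r = 0.845, rho = 0.846, adjusted permutation p = 0.0056), as did Esrra (r = 0.835, rho = 0.800, adjusted permutation p = 0.0135) and Ppargc1a (r = 0.748, rho = 0.865, adjusted permutation p = 0.0135). Prkag2 ran the other way (r = -0.824, rho = -0.882, adjusted permutation p = 0.0135).

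Of all genes, 1.36% had an r with the score at least as far from 0 in the same direction as Prkab1, 1.59% as Esrra, 1.54% as Prkag2 and 4.07% as Ppargc1a. Perm1 (r = 0.339, rho = 0.351, adjusted permutation p = 0.482) and Ppargc1b (r = 0.285, rho = 0.356, adjusted permutation p = 0.379) did not pass. Without combination rats 1 and 2, the farthest from the median score, only Prkab1 of the 4 passed, at r = 0.791 (adjusted permutation p = 0.0448). Esrra gave 0.725 (adjusted permutation p = 0.0563), Ppargc1a 0.826 (adjusted permutation p = 0.0558) and Prkag2 -0.861 (adjusted permutation p = 0.0558).

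The relations depended on how the arrays were made comparable. Without any equalisation of the deposited arrays, the median r of all genes with the target score was 0.39 in place of 0.02. There Prkag2 gave 0.294 with the sign turned, and Prkab1 gave 0.805, Esrra 0.890 and Ppargc1a 0.703. With arrays scaled to a common median none of the 4 passed, at r = 0.629 for Prkab1, 0.683 for Esrra, 0.505 for Ppargc1a and -0.676 for Prkag2.

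The same 4 genes had the opposite sign with the red cell marker score, and of these relations that of Ppargc1a passed. Ppargc1a gave r = -0.768 (rho = -0.744, adjusted permutation p = 0.0158), and 1.45% of all genes were as extreme in that direction. Prkag2 gave 0.716 (rho = 0.735, adjusted permutation p = 0.123), Prkab1 -0.663 (rho = -0.626, 0.103) and Esrra -0.613 (rho = -0.616, 0.142). In the deposited values Ppargc1a gave -0.287 and Esrra 0.005. The part of red cell content in the relations to the targets was not tested. With the fibroblast and macrophage marker scores none of 20 relations passed, at smallest adjusted permutation p of 0.379 and 0.123.

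**Figure D4:**
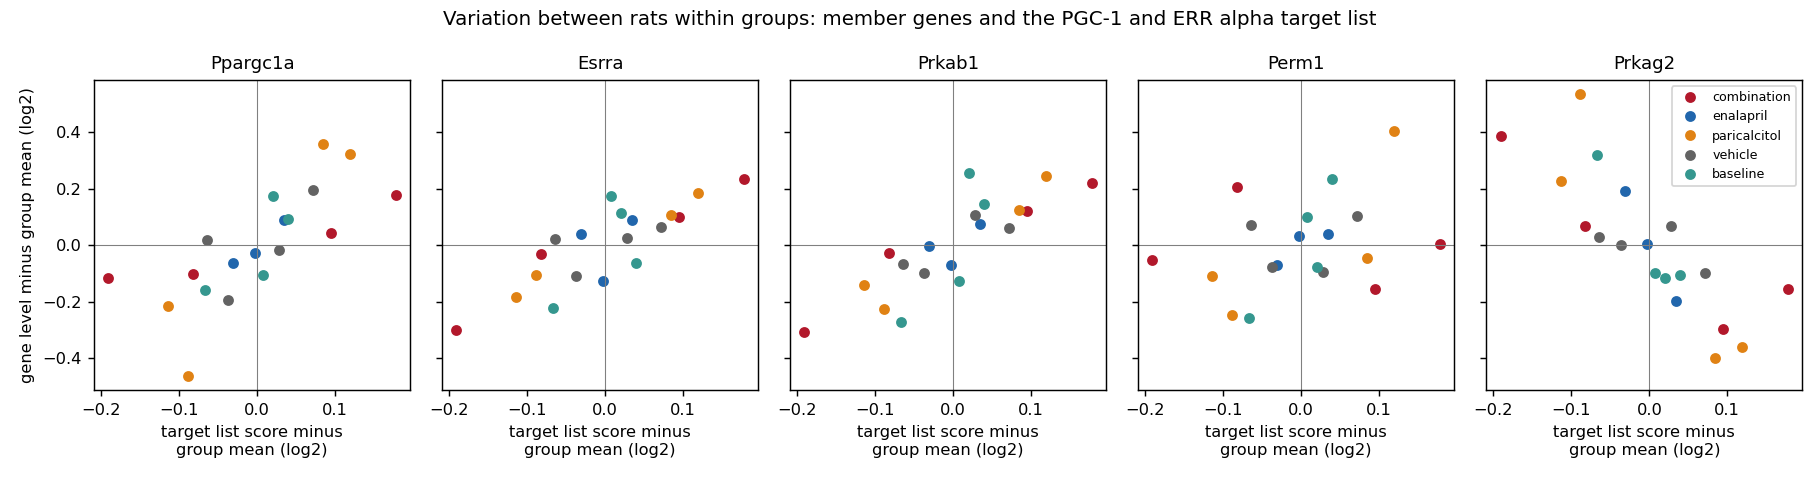
Each point is 1 rat, with the target score minus its group mean on the x axis and the level of Ppargc1a, Esrra, Prkab1, Perm1 or Prkag2 minus its group mean on the y axis, both in log2 units. Ppargc1a (r = 0.748), Esrra (r = 0.835) and Prkab1 (r = 0.845) rise with the score, Prkag2 (r = -0.824) falls, and Perm1 (r = 0.339) is scattered.

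Among the 10 genes the same split appeared, as a description over 19 arrays. Ppargc1a followed Prkab1 (r = 0.807) and Esrra (r = 0.656) and ran against Prkag2 (r = -0.857). Of all genes, 0.95% were as extreme with Prkab1, 6.2% with Ppargc1a as Esrra was, and 0.80% with Prkag2. Perm1 followed Prkaa2 (r = 0.702), Ppargc1b (r = 0.551) and Ppargc1a (r = 0.537). As extreme were 0.29% of genes with Prkaa2, and with Perm1 3.35% as Ppargc1b was and 3.81% as Ppargc1a was. How these pairs depend on the scaling of the arrays was not examined. Prkaa2 and Ppargc1b moved together (r = 0.797), and only 0.073% of genes were as extreme with Prkaa2. Prkag1, with r of -0.10 to 0.31 to the other 9 genes, followed none of them.

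The genes whose deviations were most like those of each of the 10 were found among 7099 genes above the median level. For Esrra they were Mrpl46 (r = 0.950), Tpmt (0.914) and Acy1 (0.908), and for Prkab1 Ndufv1 (0.926), Acss1 (0.925) and Pdk2 (0.912). Ndufv1, a subunit of respiratory complex I, is also one of the 67 targets. For Prkag2 they were Tmem100 (0.956), Efhd2 (0.934) and Tmem43 (0.933), and for Ppargc1a C18h5orf63 (0.920), Grb2 (0.910) and Nr1d2 (0.906). For Perm1 the likeness was lower, with Rap1gap2 (0.837), Fbxw5 (0.836) and Mmp15 (0.789), as for Prkag1, with Pla2g12a (0.808), Ptprk (0.791) and Smyd4 (0.764). Prkaa1 was most like Fbxo34 (0.804), Prkaa2 like Nicn1 (0.844), Prkab2 like Ccnt2 (0.812) and Ppargc1b like Maz (0.843).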

How the data were processed

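Left ventricle RNA of 19 rats was measured, 1 array each, in 5 groups. The deposited values are linear probe set intensities; per the labels, biotinylated cRNA was prepared from 5 ug of RNA (integrity numbers over 9). The software behind the intensities is not given in the sources used here. On each array 16.0% to 18.2% of the deposited intensities were negative. Of 31099 probe sets, 20832 named 1 gene, and those naming several (436) and 57 control probe sets were left out.

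Arrays were quantile normalized, values below 0 were set to 0, log2 of the value plus 16 was taken, and 1 probe set per gene (highest mean) entered a group-means fit (limma 3.58.1, R 4.3.3, empirical Bayes with a trend). Groups came from the sample titles. The labels do not say how rats were assigned to groups, and each group's animal numbers fall in a range of their own, so that a cohort difference and a group difference cannot be told apart. Same-numbered arrays deviated together (every r above 0.1) in 1 of 10 pairs of groups, combination and paricalcitol (0.315 to 0.555), and the labels do not pair rats by number. The genes and lists were chosen with earlier results of these data known. The procedure was tested on simulated data. Named were all 10 genes, the list genes that passed or else those of the 2 smallest p in each comparison (a selection of these is printed), and the 3 genes most like each of the 10. Relations with fibroblast and macrophage scores were added after seeing the data, as was the fibroblast covariate. Alternatives were other scalings, pseudocounts, filters, variance models, probe set rules, covariates, the replicate block and single omissions.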

Additional observations from a re-analysis of the deposited data

Results flagged for a closer look

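In 72 combinations of a probe set and a group of 4 rats, 3 had 1 rat farther from the other 3 than Dixon's critical value allows, and chance gives about 1 in 20. Prkag2 was 9.08 in baseline rat 4, against 8.65 to 8.67 in the other baseline rats. Ppargc1a, by a probe set other than the one used, was 8.92 in combination rat 2, with the next rat at 8.57. Ppargc1b was 8.73 in vehicle rat 2, with the next rat at 8.46.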

How the results depend on the processing

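Of 2366 values of the 70 differences under the alternatives and omissions, 2314 lay within 1 residual SD of the reported value and 52 lay farther, and 2211 had the sign of the reported value. None of the 70 was called. Prkag2 in paricalcitol against vehicle (-0.13) ran from -0.50 to 0.28. The 10 genes called in a comparison changed mainly with arrays scaled to a common median: 2 in vehicle against baseline (Prkag1, Prkaa2), 1 in paricalcitol against vehicle (Prkag1), 2 in combination against paricalcitol (Prkag1, Perm1), 1 in the interaction (Prkag1) and 2 in the F test (Prkag1, Perm1), and the cause was not tested. Array weights gave 1 in vehicle against baseline (Prkag1). The F test called 0 of the 10 in the deposited values, with dimmer genes left out, with probe sets averaged, with the replicate block and with the fibroblast score as a covariate, and 0 to 2 over the omissions, with 2 (Prkag1 and Perm1) without paricalcitol replicate 2. The other counts stayed at 0 over the omissions, and the replicate block changed no other call of the 10 genes. Over all genes the calls ranged from 0 to 160 in vehicle against baseline (12 reported), 0 to 214 in paricalcitol against vehicle (2), 0 to 4 in combination against vehicle (1), 0 to 68 in combination against paricalcitol (0), 0 to 8 in the interaction (0), 0 to 2 in enalapril against vehicle and in combination against enalapril (0 each) and 0 to 101 in the F test (18).

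Relations to the target score moved as follows. Ppargc1a gave 0.703 in the deposited values, 0.505 with median scaling, 0.619 with probe sets averaged and 0.826 without the 2 extreme arrays, each now short of the threshold, and 0.704 to 0.814 over the omissions. Esrra gave 0.683 with median scaling and 0.725 without the 2 extreme arrays, also short of it, and 0.756 to 0.874 over the omissions. Prkag2 gave 0.294 in the deposited values, and fell short with median scaling (-0.676), with probe sets averaged (-0.574) and without the 2 extreme arrays (-0.861). Prkab1 fell short with median scaling (0.629). Prkag1 gave -0.231 with median scaling. Prkaa1 gave -0.262 with probe sets averaged, -0.168 without the 2 extreme arrays, and -0.077 to 0.379 over the omissions. Ppargc1b gave 0.180 to 0.444 over the omissions and passed without paricalcitol replicate 3 (0.444).

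Relations to the red cell score moved as follows. In the deposited values Prkaa1 gave 0.293, Prkab2 0.078, Prkag1 0.385, Perm1 0.316, Ppargc1b 0.274, Esrra 0.005 and Ppargc1a -0.287. With median scaling Perm1 gave 0.026, Ppargc1b 0.036 and Ppargc1a -0.705. With probe sets averaged Prkaa1 gave 0.282 and Ppargc1a -0.595, with a pseudocount of 8 Prkaa2 gave -0.001, and without the 2 extreme arrays Ppargc1a gave -0.675. Over the omissions Ppargc1a gave -0.835 to -0.712 and missed the threshold without vehicle replicate 3 (-0.754), Prkaa2 -0.114 to 0.250, Prkab2 -0.361 to 0.008, Perm1 -0.303 to 0.037 and Ppargc1b -0.272 to 0.161. Without baseline replicate 4 Prkab1 (-0.826, adjusted permutation p = 0.0153) and Prkag2 (0.834, adjusted permutation p = 0.0362) passed.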
